A study of Mus musculus with 20 samples.

Results

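The genes described here are 10 Krüppel-like factors, Klf2, Klf3, Klf4, Klf6, Klf7, Klf9, Klf10, Klf13, Klf15 and Klf16, taken by name from 57126 gene identifiers measured in mouse hippocampus. All 10 were among the 18648 genes that passed a filter on low counts, so none was left out. Libraries of poly(A) RNA came from 20 male C57BL/6 mice without adrenal glands, in 4 groups of 5: wild-type or knockin, each given PBS (phosphate-buffered saline) or dexamethasone, a synthetic glucocorticoid. The knockin mice were homozygous for a version of exon 2 of Nr3c1, the glucocorticoid receptor gene, in which the full-length start codon (form GRA) is intact and the start codons of the 7 shorter forms (GRB, GRC1 to GRC3, GRD1 to GRD3) are changed to an isoleucine codon. All mice of both genotypes had lost their adrenal glands at about 2.5 months of age, and 2 weeks later received PBS or dexamethasone at 1 mg per kg into the peritoneum, 6 h before the hippocampus was taken. Each library is labelled as a biological replicate and is read here as 1 mouse. The tissue is whole hippocampus and the knockin allele is carried by every cell, so no value belongs to a single cell type. In such bulk RNA, fewer cells of a type and less RNA per cell cannot be told apart.

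Krüppel-like factors are transcription factors that share a carboxy-terminal cluster of zinc fingers, which binds GC-rich and CACCC sequences, and differ in the rest of the protein. Klf9, Klf10, Klf13 and Klf16 recruit the Sin3 corepressor, Klf3 recruits the CtBP corepressor, and Klf2, Klf4, Klf6 and Klf7 act largely as activators. Klf9 and Klf15 are known as genes that the glucocorticoid receptor induces in several tissues, and Klf9 takes part in the maturation of hippocampal granule neurons.

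The libraries held 11493014 to 48267708 read pairs assigned to genes, and the lowest count of a Krüppel-like factor listed above in any library was 44 (Klf4). All 10 markers of hippocampal neuron subfields were found in every library. Those of striatum and choroid plexus were also found in every library, so detection alone does not tell these tissues apart. The summed level of 14 liver genes was 255 CPM (counts scaled to a common library total) in wild-type PBS replicate 1, 150 in wild-type PBS replicate 2 and 5.31 to 64.0 CPM in the other libraries. Choroid plexus markers (8 genes, with Ttr) reached 1802 CPM in wild-type PBS replicate 4 and 1401 in knockin dexamethasone replicate 2. Calls of the factors that changed without the libraries high in liver genes, or without those high in choroid plexus markers, are given with and without them. Correlations were recomputed without the former pair of libraries and not without the latter pair. Nr3c1, the targeted gene, fell under dexamethasone in both genotypes, by 0.46 on the log2 scale in wild-type and 0.55 in knockin mice (edgeR adjusted p = 0.0112 and 0.00227). Counts over the whole gene do not read the mutated codons and are no check of them.

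Dexamethasone raised Klf15, Klf9 and Klf13 in both genotypes. Klf15 roughly doubled, and Klf9, the most abundant of the 10 per kilobase of exon, gained 35.9% in wild-type and 40.3% in knockin mice. Klf4 rose in wild-type mice, and Klf3 fell in knockin mice by a small amount. Among the 10, 4 were called in wild-type mice, against 9.21% of all genes tested: 4 rose and 0 fell, against 5.27% called higher and 3.94% called lower. In knockin mice 4 were called, against 10.0%: 3 rose and 1 fell, against 5.28% and 4.71%. At an unadjusted p below 0.05 edgeR picked 8 of the 10 in wild-type mice (19.9% of all genes tested) and 5 in knockin mice (20.8%). A gene was called at an adjusted p below 0.05 from edgeR's quasi-likelihood test, with Benjamini-Hochberg adjustment over all 18648 genes. The median log2 fold change of the 10 was 0.21 in wild-type mice, beside -0.00 over all genes tested, and 0.00 in knockin mice, beside 0.00.

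Klf15 (ENSMUSG00000030087.12, mm39 chromosome 6, 90439558 to 90452220, plus strand) drives genes of amino acid breakdown and glucose metabolism in liver and muscle. Its level in the 5 wild-type PBS libraries was 17.2, 19.2, 13.2, 13.5 and 16.4 CPM, with TMM (trimmed mean of M values) scaling for library size. Under dexamethasone the wild-type libraries read 37.4, 30.7, 28.2, 33.8 and 31.4 CPM. The knockin libraries read 15.0, 13.1, 14.2, 17.1 and 15.5 CPM under PBS and 30.7, 33.3, 30.9, 35.2 and 32.3 CPM under dexamethasone. Every dexamethasone library lay above every PBS library of its genotype. The log2 fold change was 1.01 in wild-type mice (SE 0.09, 95% interval 0.82 to 1.20, edgeR adjusted p = 6.04e-08) and 1.11 in knockin mice (SE 0.09, 0.92 to 1.31, edgeR adjusted p = 1.12e-08), or 2.02-fold and 2.16-fold. The knockin response minus the wild-type response was 0.10 (95% interval -0.17 to 0.37).

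Klf9 (ENSMUSG00000033863.3, chromosome 19, 23118590 to 23145498, plus strand), a repressor that binds the basal transcription element of promoters, was at 245, 252, 205, 216 and 225 CPM in wild-type PBS libraries. Wild-type dexamethasone libraries held 328, 313, 306, 310.2 and 296 CPM. Knockin libraries held 231, 205, 204, 259 and 244 CPM under PBS and 298, 344, 325, 344 and 293 CPM under dexamethasone. Again the treated and untreated libraries of a genotype did not overlap. The log2 fold change was 0.44 in wild-type mice (SE 0.07, edgeR adjusted p = 9.05e-05) and 0.49 in knockin mice (SE 0.07, edgeR adjusted p = 2.25e-05). The responses differed by 0.05 (95% interval -0.15 to 0.24).

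Klf13 (ENSMUSG00000052040.11, chromosome 7, 63536099 to 63588663, minus strand) is a close relative of Klf9 that regulates gene expression in lymphocytes and in the heart. The wild-type libraries held 254, 281, 238, 259 and 269 CPM under PBS and 345, 335, 295, 303 and 309 CPM under dexamethasone. The knockin libraries held 266, 248, 226, 284 and 299 CPM under PBS and 309, 347, 309.6, 327 and 314 CPM under dexamethasone. No PBS library reached the lowest dexamethasone library of its genotype, although the margin was narrow in knockin mice (299 against 309 CPM). The log2 fold change was 0.29 in wild-type mice (SE 0.06, edgeR adjusted p = 0.00347) and 0.28 in knockin mice (SE 0.06, edgeR adjusted p = 0.00378), with a difference of -0.01 (95% interval -0.19 to 0.18). With the summed immediate-early genes as a covariate, the wild-type value was 0.26 and no longer passed (edgeR adjusted p = 0.0730). These genes summed to 682 to 817 CPM in wild-type PBS and 597 to 708 CPM in wild-type dexamethasone libraries, and their part in the result was not tested beyond that fit. Groups that did not overlap were found for 3 of the 10 factors in wild-type mice (Klf9, Klf13 and Klf15), against 8.22% of all genes tested. In knockin mice there were 4 (the same genes and Klf3), against 8.68%.

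**Figure D1:**
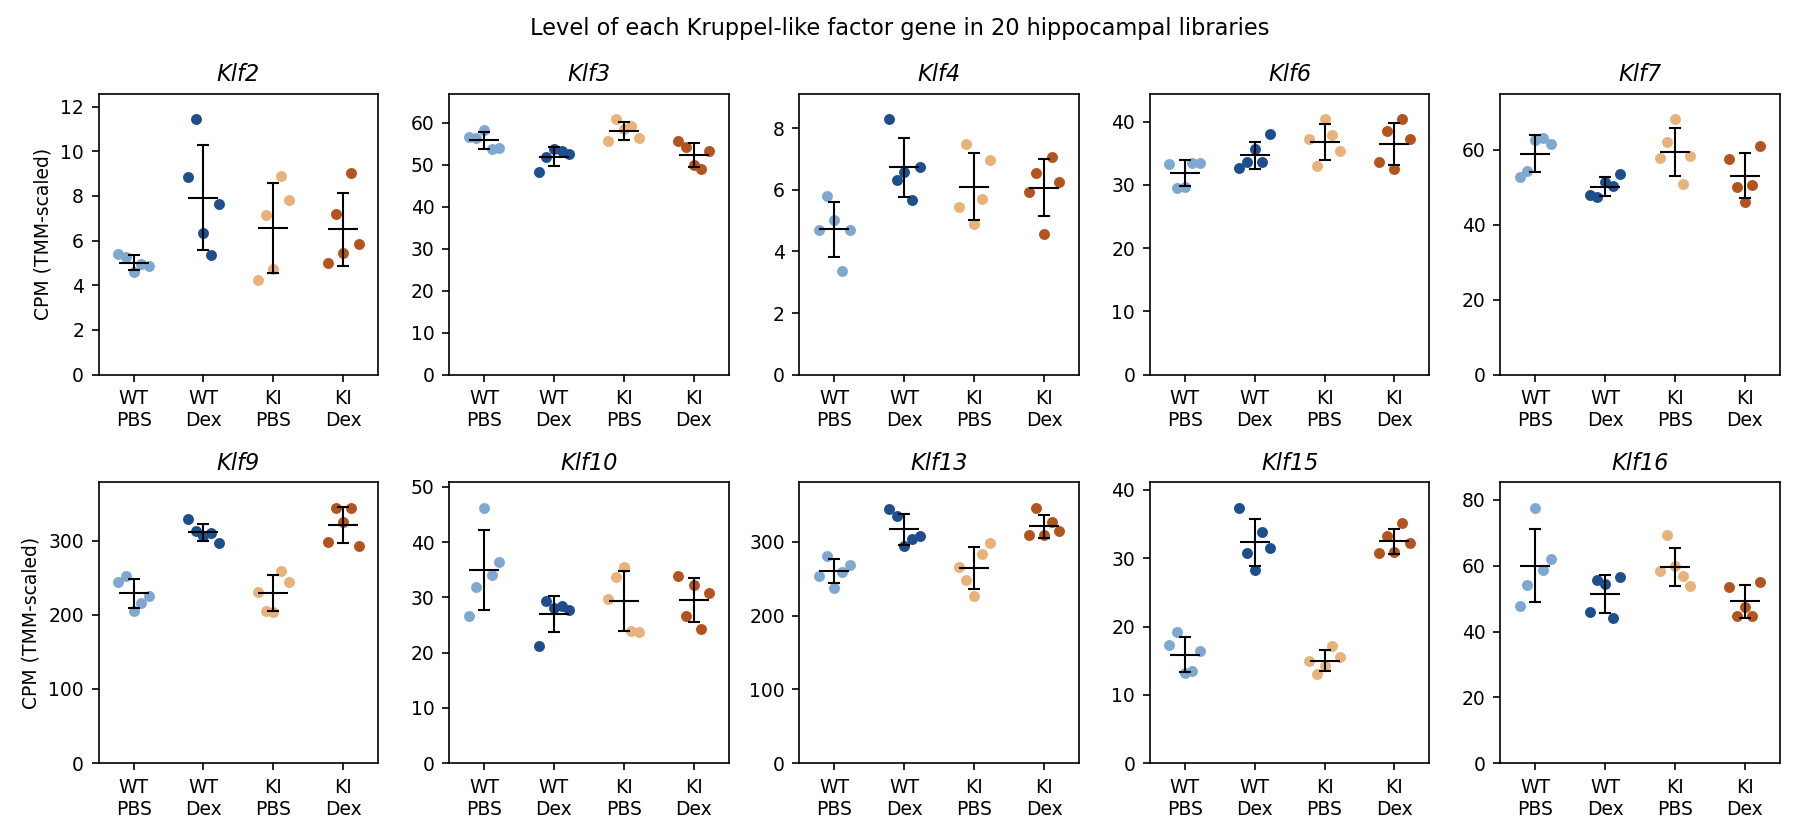
Level of the 10 Krüppel-like factors in CPM (TMM-scaled; linear axes from 0) in each of the 20 libraries, by group (WT, wild-type; KI, knockin; Dex, dexamethasone), with the group mean and SD in black. For Klf15 the 10 dexamethasone libraries sit between 28.2 and 37.4 CPM and the 10 PBS libraries between 13.1 and 19.2 CPM.

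The DNA just upstream of the start of transcription was read for the factors that moved together. RefSeq windows of 250 bases (build GRCm38.p6) matched 8 of the 10 genes, all but Klf10 and Klf16. Those of Klf9 (chr19:23140976-23141225, plus strand), Klf13 (chr7:63938916-63939165, minus strand) and Klf15 (chr6:90462326-90462575, plus strand) are printed because these genes rose in both genotypes. That of Klf7 (chr1:64121390-64121639, minus strand) is printed because Klf7 varied between mice opposite to Klf9, as given further on. Each runs 5′ to 3′ and ends 1 base before the start; capitals mark the GC box GGGCGG and the CACCC box, the kinds of sequence these factors bind, on either strand.
Klf9: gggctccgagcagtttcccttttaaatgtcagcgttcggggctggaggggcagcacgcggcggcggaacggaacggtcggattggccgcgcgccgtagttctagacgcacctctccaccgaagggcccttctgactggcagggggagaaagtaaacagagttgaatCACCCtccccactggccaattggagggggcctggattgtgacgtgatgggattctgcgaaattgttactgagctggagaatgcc
Klf13: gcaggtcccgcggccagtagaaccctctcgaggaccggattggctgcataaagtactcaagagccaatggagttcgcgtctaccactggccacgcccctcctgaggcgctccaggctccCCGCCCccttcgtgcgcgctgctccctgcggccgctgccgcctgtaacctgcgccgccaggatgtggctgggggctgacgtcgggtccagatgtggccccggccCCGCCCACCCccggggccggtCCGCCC
Klf15: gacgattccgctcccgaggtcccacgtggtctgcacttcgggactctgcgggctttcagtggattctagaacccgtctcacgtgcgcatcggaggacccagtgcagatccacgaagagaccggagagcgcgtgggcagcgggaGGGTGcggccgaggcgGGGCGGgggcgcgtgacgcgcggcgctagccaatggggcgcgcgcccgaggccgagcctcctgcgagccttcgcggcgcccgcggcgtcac
Klf7: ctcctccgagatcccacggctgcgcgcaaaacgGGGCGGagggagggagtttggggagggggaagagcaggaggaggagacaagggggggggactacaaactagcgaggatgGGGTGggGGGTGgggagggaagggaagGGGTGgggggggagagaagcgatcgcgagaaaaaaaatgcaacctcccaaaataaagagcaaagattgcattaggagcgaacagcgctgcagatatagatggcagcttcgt

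In these windows Klf9 held 0 GC boxes and 1 CACCC box, at 84 to 80 bases before the start. Klf13 held 3 GC boxes and 1 CACCC box, which overlaps a GC box by 1 base, and Klf15 held 1 of each. Klf7 held 1 GC box and 3 CACCC boxes. The window of Klf3 held most, with 6 and 5. Of 32851 windows of the same length in the RefSeq table, 32.7% held GGGCGG and 52.0% held CACCC on either strand. ACANNNTGT, the core of the glucocorticoid response element, was in none of the 8 windows and in 5.84% of all. The cyclic AMP element TGACGTCA (1.55% of all) and the TATA box TATAAA (12.4% of all) were in none of the 8 either. The windows of Klf13 and Klf15 were 71.6% and 72.0% G or C, that of Klf9 was 59.6%, and the median of all windows was 52.4%. These counts describe letters in a short window and do not bear on binding elsewhere.

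The other Sin3-binding factors, Klf16 and Klf10, passed in neither genotype alone. Klf16 (ENSMUSG00000035397.9, chromosome 10, 80402958 to 80413155, minus strand), known as a repressor of dopamine receptor genes, was at 47.8, 54.1, 77.7, 58.6 and 62.0 CPM in the wild-type PBS libraries and 46.0, 55.5, 54.5, 44.2 and 56.6 CPM in the treated wild-type ones. The knockin values were 58.3, 69.3, 59.8, 57.0 and 53.8 CPM under PBS and 53.7, 44.8, 47.3, 44.8 and 55.1 CPM under dexamethasone. The groups overlapped in both genotypes, and the log2 fold changes of -0.23 (SE 0.11, edgeR adjusted p = 0.284) and -0.28 (SE 0.11, edgeR adjusted p = 0.151) did not pass. In the mean response of both genotypes, which uses all 20 libraries and so is not independent of the values by genotype, Klf16 fell by 0.25 (SE 0.08, edgeR adjusted p = 0.0350). That call was lost in 13 of 31 alternatives. The value was smallest with immediate-early genes as a covariate (-0.13, edgeR adjusted p = 0.390) and with endothelial markers as a covariate (-0.19, edgeR adjusted p = 0.254). It was -0.24 without the libraries high in choroid plexus markers (edgeR adjusted p = 0.0812), -0.22 in limma-voom (limma adjusted p = 0.0576) and -0.26 with no filter on low counts (edgeR adjusted p = 0.0789). Without wild-type PBS replicate 5, wild-type dexamethasone replicate 1 or 4, knockin PBS replicate 2 or 3, or knockin dexamethasone replicate 2, 3 or 4, the edgeR adjusted p was 0.0572, 0.0680, 0.0617, 0.0661, 0.0567, 0.0655, 0.0602 and 0.0649 in that order. Without wild-type PBS replicates 1 and 2, the libraries with liver transcripts, the wild-type value was -0.38 and passed (edgeR adjusted p = 0.0394). It was -0.02 with immediate-early genes as a covariate (edgeR adjusted p = 0.974) and -0.12 without wild-type PBS replicate 3 (edgeR adjusted p = 0.604), the library with the highest Klf16 of its group. The knockin value passed with the compared libraries alone (-0.29, edgeR adjusted p = 0.0296) and without wild-type PBS replicate 3 (-0.29, edgeR adjusted p = 0.0474).

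Klf10 (ENSMUSG00000037465.11, chromosome 15, 38291707 to 38300950, minus strand) was first described as a gene induced early by transforming growth factor beta. Wild-type libraries read 26.6, 31.9, 46.2, 33.96 and 36.4 CPM under PBS and 21.2, 29.3, 28.1, 28.4 and 27.7 CPM under dexamethasone. Knockin libraries read 29.7, 33.7, 35.5, 23.9 and 23.7 CPM under PBS and 33.8, 26.6, 32.3, 24.3 and 30.7 CPM under dexamethasone. The highest library was wild-type PBS replicate 3 and the lowest was wild-type dexamethasone replicate 1, and the groups overlapped. The log2 fold change was -0.39 in wild-type mice (SE 0.15, edgeR adjusted p = 0.133) and 0.01 in knockin mice (SE 0.15, edgeR adjusted p = 0.991). Without wild-type PBS replicates 1 and 2 the wild-type value was -0.55 and passed (edgeR adjusted p = 0.0331), and with immediate-early genes as a covariate it was -0.16 (edgeR adjusted p = 0.736).

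Klf3 (ENSMUSG00000029178.16, chromosome 5, 64960731 to 64990244, plus strand), a repressor that works through CtBP, varied little between mice of a group (coefficient of variation 3.51% to 5.46%). It was at 56.6, 56.5, 58.4, 53.8 and 54.0 CPM in the wild-type PBS libraries and 48.4, 51.9, 53.8, 53.4 and 52.6 CPM in the treated wild-type ones. The knockin values were 55.7, 60.9, 58.5, 59.3 and 56.3 CPM under PBS and 55.7, 54.4, 49.9, 49.0 and 53.3 CPM under dexamethasone. The knockin groups did not overlap, by a margin under the printed precision. Klf3 fell by 0.15 on the log2 scale in knockin mice (SE 0.04, edgeR adjusted p = 0.0188) and read -0.11 in wild-type mice (SE 0.04, edgeR adjusted p = 0.131). The difference was -0.04 (95% interval -0.16 to 0.08). The knockin call was lost without knockin PBS replicate 2, knockin dexamethasone replicate 3 or knockin dexamethasone replicate 4 (edgeR adjusted p = 0.0670, 0.0586 and 0.0746) and with endothelial markers as a covariate (0.0700). The mean response fell by 0.13 (SE 0.03, edgeR adjusted p = 0.00242), a call lost with immediate-early genes as a covariate (-0.10, edgeR adjusted p = 0.0528).

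Among the factors that act as activators, Klf7 (ENSMUSG00000025959.14, chromosome 1, 64068606 to 64160650, minus strand) is known for its part in axon growth. It read 52.7, 54.5, 62.6, 63.2 and 61.7 CPM in the wild-type PBS libraries and 48.0, 47.4, 51.4, 50.4 and 53.7 CPM in the treated wild-type ones. The knockin values were 57.8, 62.0, 68.3, 51.0 and 58.3 CPM under PBS and 57.6, 50.1, 46.2, 50.7 and 61.1 CPM under dexamethasone. The wild-type groups met only in part, since dexamethasone replicate 5 lay above PBS replicate 1, while the knockin groups overlapped widely. Neither genotype passed alone: on the log2 scale the response was -0.23 in wild-type mice (SE 0.08, edgeR adjusted p = 0.0722) and -0.16 in knockin mice (SE 0.08, edgeR adjusted p = 0.253). The mean response fell by 0.19 (SE 0.05, edgeR adjusted p = 0.0154). With endothelial markers as a covariate it was -0.09 (edgeR adjusted p = 0.287), and with immediate-early genes as a covariate it was -0.11 (edgeR adjusted p = 0.268). Without the libraries high in choroid plexus markers (knockin dexamethasone replicate 2 and wild-type PBS replicate 4) it was -0.17 (edgeR adjusted p = 0.0568), and with no filter on low counts -0.20 (edgeR adjusted p = 0.0522). The wild-type value was -0.13 with endothelial markers (edgeR adjusted p = 0.296) and -0.09 with immediate-early genes as a covariate (edgeR adjusted p = 0.683). It passed in DESeq2 (-0.23, DESeq2 adjusted p = 0.0383), with the compared libraries alone (-0.23, edgeR adjusted p = 0.00976) and without wild-type PBS replicates 1 and 2 (-0.32, edgeR adjusted p = 0.0162). It also passed without wild-type PBS replicate 1, knockin PBS replicate 3 or knockin PBS replicate 4 (edgeR adjusted p = 0.0414, 0.0456 and 0.0409). The knockin value was -0.05 with endothelial markers as a covariate and -0.10 without knockin PBS replicate 3 (edgeR adjusted p = 0.790 and 0.550). Klf7 shares 4 exon bases with the antisense gene Gm13748, which held 18 counts over all libraries against 26061 for Klf7.

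Klf4 (ENSMUSG00000003032.9, chromosome 4, 55527143 to 55532466, minus strand) and Klf2 (ENSMUSG00000055148.8, chromosome 8, 73072877 to 73075500, plus strand) are both known from endothelial cells, where blood flow induces them. Klf4 stood at 4.70, 5.80, 5.02, 3.35 and 4.69 CPM in the wild-type PBS libraries and 8.29, 6.33, 6.59, 5.68 and 6.75 CPM in the treated wild-type ones. The knockin values were 5.45, 7.48, 4.88, 5.69 and 6.97 CPM under PBS and 5.91, 6.56, 4.57, 7.05 and 6.25 CPM under dexamethasone. Only 1 wild-type dexamethasone library, replicate 4, lay below the highest wild-type PBS library, and the knockin groups covered the same range. Klf4 rose in wild-type mice (log2 fold change 0.50, SE 0.13, edgeR adjusted p = 0.0156) and read 0.01 in knockin mice (SE 0.13, edgeR adjusted p = 0.978). The wild-type call rested in part on dexamethasone replicate 1, without which the value was 0.41 (edgeR adjusted p = 0.0743). With endothelial markers as a covariate it was 0.43 (edgeR adjusted p = 0.0766). The mean response of 0.26 did not pass (edgeR adjusted p = 0.0591), and it did without wild-type PBS replicates 1 and 2 (0.30, edgeR adjusted p = 0.0397) and without replicate 2 alone (0.30, edgeR adjusted p = 0.0284).

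Klf2 stood at 5.41, 5.25, 4.57, 4.95 and 4.85 CPM in the wild-type PBS libraries and 8.83, 11.4, 6.35, 5.38 and 7.64 CPM in the treated wild-type ones. The knockin values were 4.24, 7.16, 4.72, 8.89 and 7.84 CPM under PBS and 4.99, 7.17, 5.45, 9.01 and 5.86 CPM under dexamethasone. The wild-type PBS libraries kept close together (coefficient of variation 6.59%), while the other 3 groups spread widely (25.0% to 30.6%). The wild-type value of 0.66 on the log2 scale did not pass (SE 0.22, edgeR adjusted p = 0.0728), and the knockin value was -0.00 (SE 0.22, edgeR adjusted p = 0.997). DESeq2 called the wild-type value (0.66, DESeq2 adjusted p = 0.0176), and edgeR called it with the compared libraries alone (0.66, edgeR adjusted p = 0.0181). It was also called without wild-type dexamethasone replicate 4 (0.75, edgeR adjusted p = 0.0435), without knockin PBS replicate 1 (0.66, 0.0455) and without knockin dexamethasone replicate 4 (0.66, 0.0473). The summed level of 10 endothelial markers ran from 312 to 349 CPM in wild-type PBS, 280 to 326 in wild-type dexamethasone, 286 to 340 in knockin PBS and 276 to 317 CPM in knockin dexamethasone libraries. None of these markers was at 0 in any library. Of the 10, Ly6c1 rose and Tek fell in both genotypes, and Cdh5 and Flt1 fell in knockin mice. The 7 mural cell markers summed to 323 to 361 CPM in wild-type PBS and 275 to 312 CPM in wild-type dexamethasone libraries, without overlap, and to 273 to 349 and 256 to 291 CPM in knockin libraries. None of the 7 was called in wild-type mice, and Pdgfrb and Notch3 fell in knockin mice. The 15 summed lists took in the immediate-early genes beside the markers of cells and tissues. Those of mural cells and neutrophils were lower and that of thalamus and habenula was higher without overlap in wild-type mice. In knockin mice those of microglia and neutrophils were lower without overlap. Of 6 thalamus and habenula genes tested, 1 was called higher and 0 lower in wild-type mice (median log2 fold change -0.06). Of the 8 neutrophil genes, 2 passed the filter and 1 was called lower in each genotype. The neutrophil list summed to 6.24 to 8.26 CPM in wild-type PBS and 4.17 to 6.10 CPM in wild-type dexamethasone libraries. The 7 oligodendrocyte precursor markers were at 309 to 354 and 321 to 395 CPM in wild-type and 302 to 352 and 348 to 382 CPM in knockin mice under PBS and dexamethasone. Of these 7 genes, 3 were called higher and 0 lower in wild-type mice, and 4 higher and 0 lower in knockin mice. The part of these cell types in the responses of the factors was not tested.

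Klf6 (ENSMUSG00000000078.8, chromosome 13, 5911481 to 5920393, plus strand), a widely expressed activator that responds to tissue injury, passed in no comparison. Its libraries ran from 29.5 to 33.5 CPM in wild-type PBS, 32.7 to 38.0 in wild-type dexamethasone, 33.0 to 40.4 in knockin PBS and 32.5 to 40.4 CPM in knockin dexamethasone mice. The log2 fold change with dexamethasone was 0.13 (95% interval -0.00 to 0.26) in wild-type and -0.02 (-0.14 to 0.11) in knockin mice.

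In the mean response of both genotypes, 3 factors rose (Klf9, Klf13 and Klf15) and 3 fell (Klf3, Klf7 and Klf16), against 9.79% of all genes tested called higher and 8.41% called lower (18.2% in either direction). At an unadjusted p below 0.05 there were 8 of the 10, against 28.9%. With immediate-early genes as a covariate the total called was 3 in place of 6 (Klf3, Klf7 and Klf16 lost), against 11.3% of all genes tested.

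**Figure D2:**
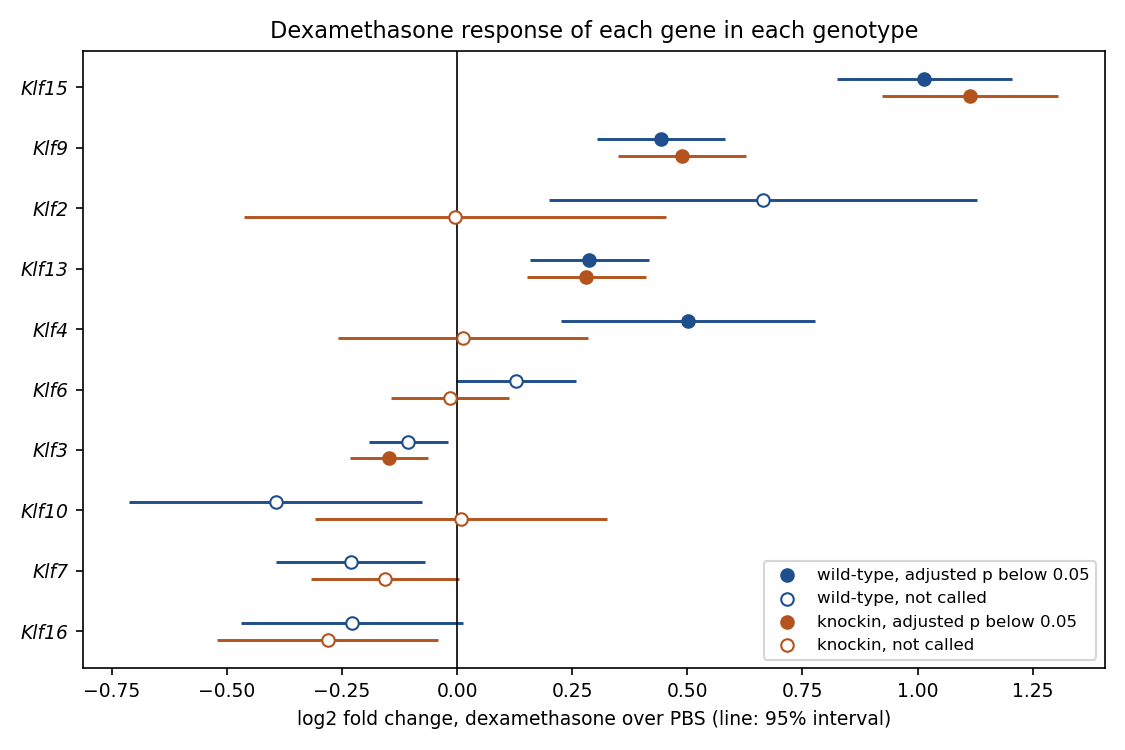
Log2 fold change of each of the 10 factors, dexamethasone against PBS, in each genotype, as points with 95% confidence intervals from edgeR (blue, wild-type; orange, knockin), and filled where the adjusted p was below 0.05. Klf15, Klf9 and Klf13 have nearly the same value in both genotypes, while Klf2, Klf4 and Klf10 lie away from 0 in wild-type mice and near 0 in knockin mice. No factor passed in the difference of the responses.

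The genotypes were then compared directly. No factor passed between knockin and wild-type mice under PBS or under dexamethasone, nor in the difference of the dexamethasone responses, and edgeR called 0 of all genes tested in each of these (background 0%). DESeq2 and limma-voom also called 0. At an unadjusted p below 0.05, 2 of the 10 stood out under PBS (3.61% of all genes), 0 under dexamethasone (4.44%) and 2 in the difference of responses (2.83%). Under PBS these were Klf6, higher in knockin mice by 0.21 (SE 0.06, 95% interval 0.08 to 0.34, edgeR unadjusted p = 0.00242), and Klf4, by 0.33 (SE 0.14, 0.05 to 0.61, unadjusted p = 0.0227). In the difference of responses, knockin minus wild-type, these were Klf4 at -0.49 (SE 0.19, 95% interval -0.88 to -0.10, edgeR unadjusted p = 0.0155) and Klf2 at -0.67 (SE 0.31, -1.32 to -0.02, unadjusted p = 0.0451). Klf10 read 0.40 (SE 0.21, -0.05 to 0.85, unadjusted p = 0.0761). The edgeR adjusted p was 1.0 for all of them, so the wild-type rise of Klf4 and its knockin value are not shown to differ.

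Levels were compared between genes per kilobase of exon (RPKM, that is TMM-scaled CPM divided by exon length in kilobases). In wild-type PBS mice Klf9 came first at 51.0 ± 4.31 RPKM (SD, n = 5), then Klf13 at 39.0 ± 2.44 and Klf16 at 22.5 ± 4.18 RPKM, with no overlap between neighbours. The middle of the order was Klf3 at 10.7, Klf10 at 9.14, Klf6 at 7.55, Klf7 at 7.32 and Klf15 at 5.77 RPKM, and each of these overlapped the next in its 5 libraries. Klf2 (2.71 RPKM) and Klf4 (1.56 RPKM) came last, each apart from the gene above it. The 3 most abundant factors of the 10 are the Sin3-binding Klf9, Klf13 and Klf16, while Klf10, which also recruits Sin3, stood lower at 9.14 RPKM.

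Under PBS in knockin mice 8 of the 10 places held the same genes as in wild-type mice, while Klf6 (8.71 RPKM) and Klf10 (7.65 RPKM) stood in each other's places with overlapping libraries. Dexamethasone moved Klf15 from place 8 to place 4 in both genotypes, at 11.7 ± 1.26 RPKM in wild-type and 11.8 ± 0.67 RPKM in knockin mice. In wild-type mice its libraries still overlapped those of Klf3, the next gene, and in knockin mice they did not. Klf9 reached 69.3 ± 2.60 and 71.5 ± 5.50 RPKM. The sum over the 10 factors went from 157 ± 4.33 to 186 ± 5.58 RPKM in wild-type and from 159 ± 7.07 to 188 ± 6.30 RPKM in knockin mice. Klf9 made up 32.4% of that sum under PBS and 37.3% under dexamethasone in wild-type mice, and 32.0% and 37.9% in knockin mice.

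**Figure D3:**
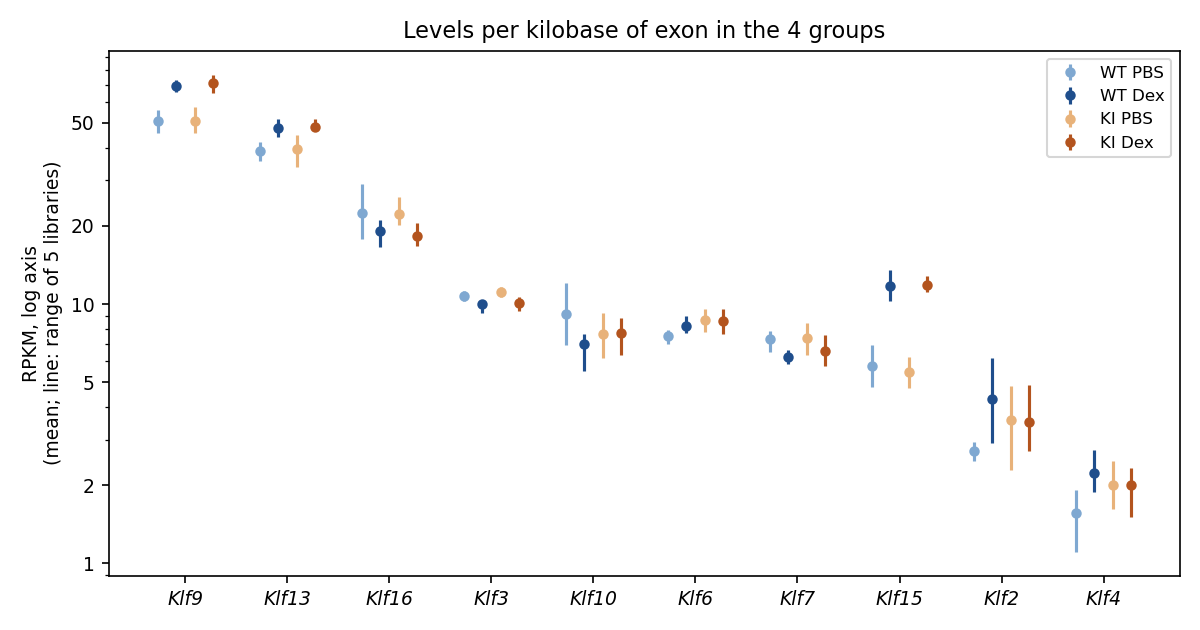
Mean level of the 10 factors in RPKM (log axis) in each of the 4 groups (WT, wild-type; KI, knockin; Dex, dexamethasone), as points, with lines for the range of the 5 libraries. Klf9, Klf13 and Klf16 hold the first 3 places in every group, and Klf15 moves from place 8 under PBS to place 4 under dexamethasone.

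The factors also varied together between mice of the same group. For this, log2 CPM was taken as its deviation from the group mean in all 20 libraries, so that treatment and genotype drop out, and each of the 45 pairs was tested by permutation within groups (100000 resamples, two-sided, Benjamini-Hochberg over the 45). Of these, 13 pairs passed, 6 with the same and 7 with opposite directions, and all 13 involved only Klf7, Klf9, Klf10, Klf13, Klf15 and Klf16. The share of passing pairs among other genes was not computed, so the count is not shown to be particular to these factors. All 3 pairs among Klf9, Klf13 and Klf15 and all 3 among Klf7, Klf10 and Klf16 were positive and passed. Between these sets all 9 pairs were negative and 7 passed. The others were Klf7 with Klf13 (r = -0.56, rho = -0.52, adjusted permutation p = 0.0596) and Klf13 with Klf16 (r = -0.45, rho = -0.51, adjusted permutation p = 0.121). Klf9 and Klf15 gave Pearson r = 0.79 and Spearman rho = 0.79 (permutation p = 1e-04 and adjusted p = 0.0018 for r). Klf9 and Klf13 gave r = 0.77 and rho = 0.76 (permutation p = 0.00058, adjusted 0.00435), and Klf13 and Klf15 gave r = 0.64 and rho = 0.69 (permutation p = 0.00426, adjusted 0.0192).

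Klf7 and Klf9 were the most strongly opposed, at r = -0.86 and rho = -0.87 (permutation p = 0.00012, adjusted 0.0018). Klf9 and Klf10 gave r = -0.84 and rho = -0.78 (permutation p = 0.00011, adjusted 0.0018), Klf9 and Klf16 gave r = -0.75 and rho = -0.76 (permutation p = 0.00016, adjusted 0.0018), and Klf10 and Klf16 gave r = 0.79 and rho = 0.71 (permutation p = 0.00039, adjusted 0.00351). The sign was the same in 4 of 4 groups for each of the 13 pairs. Without the 2 libraries farthest from the median of the first gene, r was -0.82 for Klf7 and Klf9, -0.81 for Klf9 and Klf10, 0.79 for Klf9 and Klf15 and -0.85 for Klf9 and Klf16. Without wild-type PBS replicates 1 and 2 together, 9 pairs passed, and without wild-type PBS replicate 3, 8 pairs passed. All genes of a library share its depth and scaling; the log2 library total was related to none of the 10 at an adjusted p below 0.05.

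**Figure D4:**
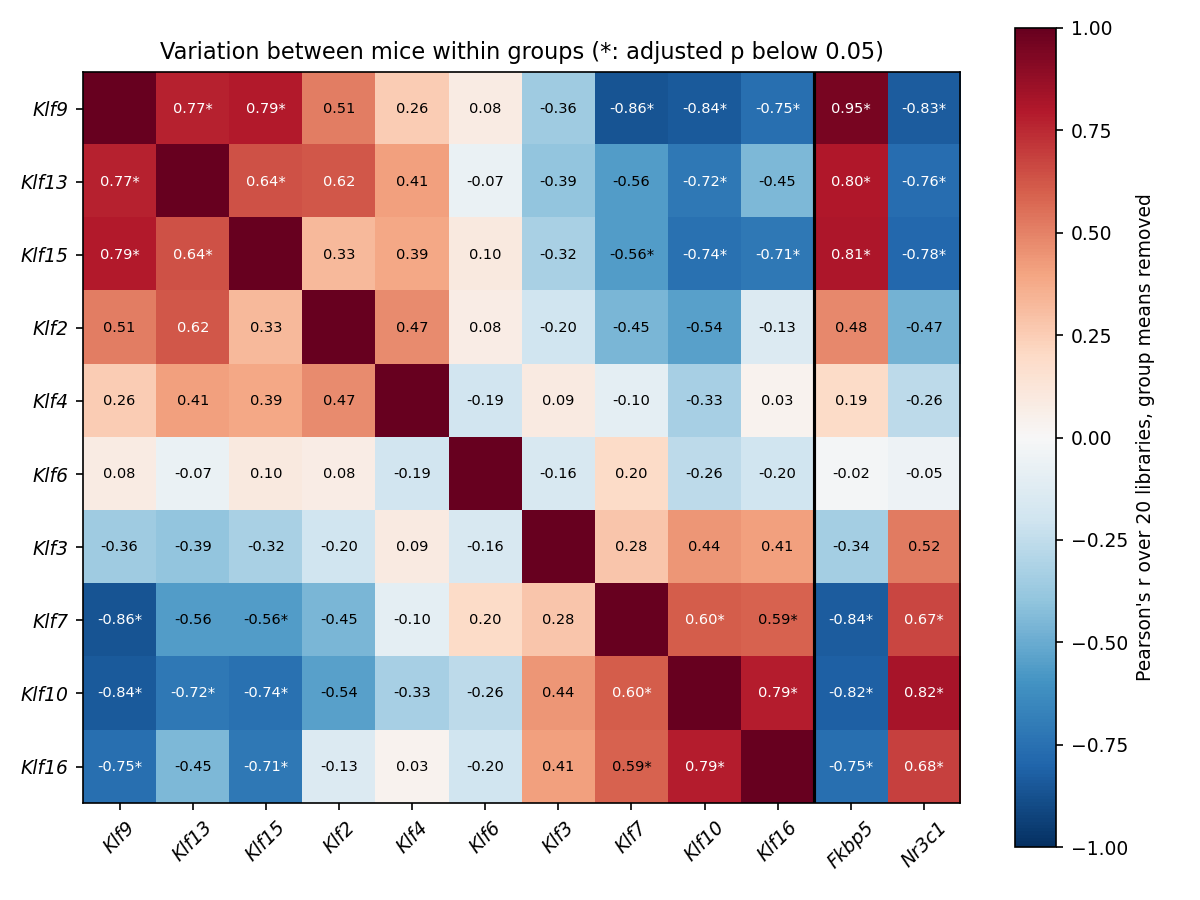
Pearson r of the within-group deviations of log2 CPM for each pair of the 10 factors over 20 libraries, from -1 to 1, and, right of the black line, of each factor with Fkbp5 and Nr3c1; a star marks an adjusted permutation p below 0.05. Klf9, Klf13 and Klf15 are positive with each other (0.64 to 0.79) and negative with Klf7, Klf10 and Klf16.

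These deviations were set against other measures of the same libraries in a family of 110 relations (11 measures by 10 factors), chosen after the pairs had been seen. Fkbp5, a cochaperone gene that the glucocorticoid receptor induces, passed with 6 factors. Its level was 66.0, 69.7, 24.9, 36.8 and 43.6 CPM of the library total in wild-type PBS and 45.3, 27.9, 23.0, 69.2 and 58.0 CPM in knockin PBS libraries, a wide range among mice without adrenals. Under dexamethasone it was 165, 166, 112, 156 and 118 CPM in wild-type and 102, 151, 146, 154 and 107 CPM in knockin libraries. The PBS mice high in Fkbp5 were also those high in Klf9 in both genotypes: the highest pair in each set by Fkbp5 was wild-type PBS replicates 1 and 2 and knockin PBS replicates 4 and 5, which were also the highest pair by Klf9.

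Klf9 and Fkbp5 gave r = 0.95 and rho = 0.94 over the 20 libraries (permutation p = 1e-05, the smallest that 100000 resamples can give, adjusted 0.0011), and r = 0.94 without the 2 farthest libraries. Klf15 (r = 0.81, rho = 0.84, permutation p = 0.00024, adjusted 0.00481) and Klf13 (r = 0.80, rho = 0.78, permutation p = 0.00055, adjusted 0.00672) went the same way. Klf7 (r = -0.84, rho = -0.83, permutation p = 4e-05, adjusted 0.00147), Klf10 (r = -0.82, rho = -0.77, permutation p = 0.00033, adjusted 0.00481) and Klf16 (r = -0.75, rho = -0.75, permutation p = 0.00029, adjusted 0.00481) went the opposite way. Nr3c1 passed with the same 6 factors at reversed signs, from r = -0.83 with Klf9 to r = 0.82 with Klf10. These 6 are also the genes of the correlated pairs, so the relations are not separate from those pairs. How many of all genes related to Fkbp5 or Nr3c1 in this way was not counted. Without the 2 farthest libraries r with Fkbp5 lay between 0.69 (Klf13) and 0.94 (Klf9) for the positive relations and between -0.73 (Klf10) and -0.82 (Klf7) for the negative ones.

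The 14 liver genes, a list made after the values were seen, passed with Klf7 (r = -0.65, rho = -0.66, permutation p = 0.00255, adjusted 0.0234). Without wild-type PBS replicates 1 and 2 this r was -0.51. With Klf9 the 14 genes gave r = 0.62 (adjusted permutation p = 0.0581). The full list of 16 liver genes, with Ttr and Trf, gave r = -0.03 with Klf7 and 0.04 with Klf9 (adjusted permutation p = 0.976 and 0.975). Without wild-type PBS replicates 1 and 2 Klf9 and Fkbp5 still gave r = 0.93. Nr1d1, a clock repressor gene, passed with Klf10 (r = 0.72, rho = 0.67, permutation p = 0.00146, adjusted 0.0146) and Klf3 (r = 0.66, rho = 0.62, permutation p = 0.00395, adjusted 0.0310). The clock genes Per1, Per2, Dbp and Arntl, the mitochondrial share and the share of the 50 highest genes passed with none. Of 150 relations between the 10 factors and the 15 summed lists (the immediate-early genes included), none passed after adjustment. The endothelial markers gave r = 0.64 with Klf7 (adjusted permutation p = 0.321), -0.17 with Klf2 (adjusted permutation p = 0.964) and -0.28 with Klf4 (adjusted permutation p = 0.728).

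**Figure D5:**
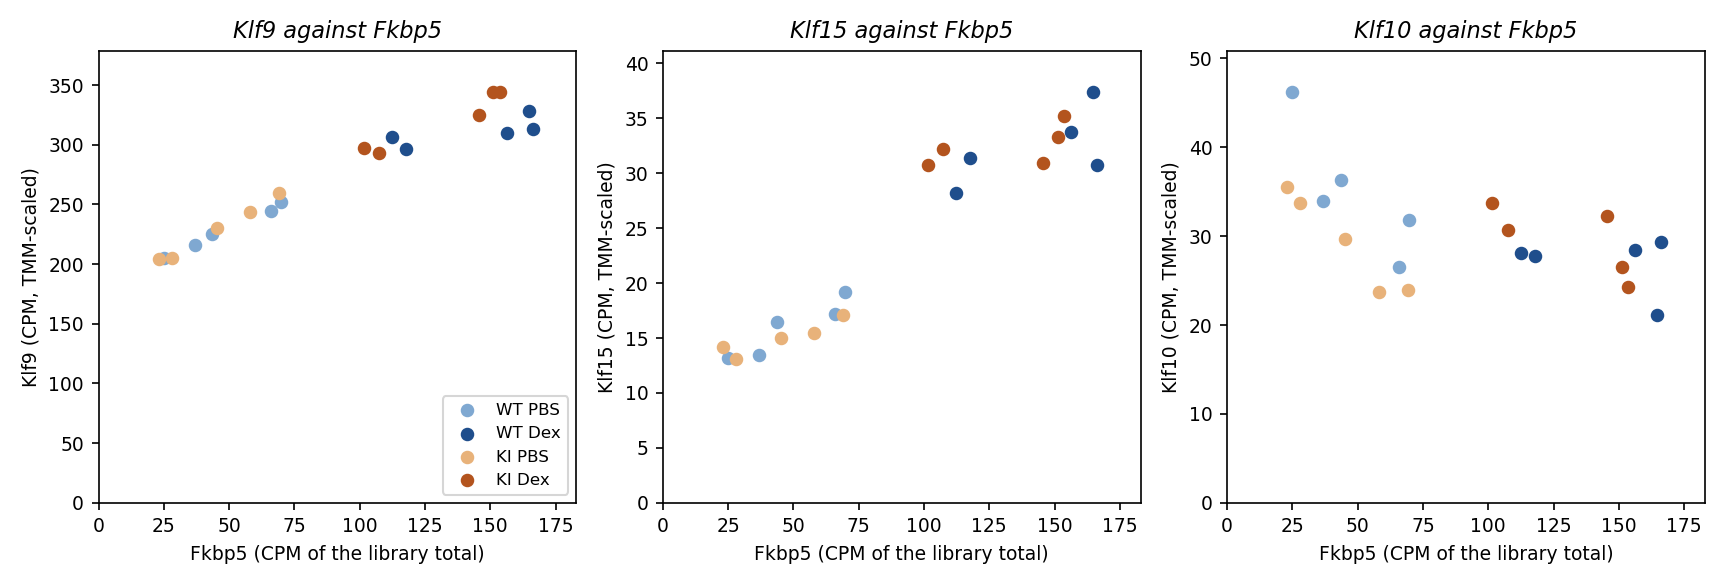
Level of Klf9, Klf15 and Klf10 in CPM (TMM-scaled) against Fkbp5 in CPM of the library total, 1 point per library, coloured by group (WT, wild-type; KI, knockin; Dex, dexamethasone). Within the PBS groups alone, Klf9 ran from 204 to 259 CPM and was higher in the libraries with more Fkbp5, which ran from 23.0 to 69.7 CPM.

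The genes whose within-group deviations were most like a factor's were sought among 12661 genes with a mean log2 CPM of at least 1 over the 20 libraries. For Klf9 they were Nedd4l (r = 0.97), Add2 (0.95) and Fkbp5 (0.95), for Klf13 Fam84a (0.90), Cacna1h (0.89) and Orai2 (0.89), and for Klf15 Adamts20 (0.87), Il20rb (0.83) and Maml2 (0.82). For Klf7 they were Adcy8 (0.85), Rgma (0.83) and Rnf217 (0.83), for Klf16 Rasl10a (0.92), Gprin1 (0.91) and Ubtf (0.89), and for Klf3 Gopc (0.83), Ptar1 (0.78) and D1Ertd622e (0.77). These are the highest of many correlations and are given as a description.

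Of the 7 other Krüppel-like factor genes, 4 passed the filter (Klf5, Klf8, Klf11 and Klf12) and 3 did not (Klf1, Klf14 and Klf17). None was called in either genotype, and Klf11, a Sin3-binding relative of Klf10, fell in the mean response by 0.25 (SE 0.09, edgeR adjusted p = 0.0453). Of the 9 Sp genes, which encode related zinc finger factors, 7 were tested. Sp7, a regulator of bone-forming cells that is also present in oligodendrocytes, fell in knockin mice by 1.14 (SE 0.25, edgeR adjusted p = 0.00220), from 1.65 ± 0.35 to 0.72 ± 0.34 CPM, and read -0.37 (SE 0.25, edgeR adjusted p = 0.447) in wild-type mice. The difference of -0.76 had edgeR unadjusted p = 0.0397 and adjusted p = 1.0.

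Among 14 cofactors of the family, the acetyltransferase genes Crebbp (log2 fold change 0.17, SE 0.04, edgeR adjusted p = 0.0116) and Ep300 (0.15, SE 0.04, edgeR adjusted p = 0.00950) rose in wild-type mice, and none was called in knockin mice. Of all genes tested, 9.21% were called in wild-type mice (5.27% higher) and 10.0% in knockin mice. The genotype difference was -0.12 for Crebbp and -0.10 for Ep300 (edgeR adjusted p = 1.0 for both). Of 15 genes upstream of the family, Nr3c1 alone fell in each genotype. In the mean response Mapk7, the kinase that induces Klf2 and Klf4 in endothelium, fell by 0.24 (SE 0.07, edgeR adjusted p = 0.0202), and Nr3c2, the mineralocorticoid receptor gene, fell by 0.30 (SE 0.10, edgeR adjusted p = 0.0439). Together with Nr3c1, 3 of the 15 fell there, against 8.41% of all genes tested called lower and 18.2% called in either direction.

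Of 15 genes reported elsewhere as targets of these factors, 3 rose and 1 fell in each genotype, and the rest were not called. Among all genes tested, the share called higher was 5.27% (wild-type) and 5.28% (knockin), and the share called lower 3.94% and 4.71%. The median log2 fold change of the 15 genes read -0.01 (wild-type) and -0.03 (knockin). The part of the factors in the changes of these genes was not tested. Prodh, proline dehydrogenase, a reported target of Klf15, went from 19.7 ± 3.60 to 32.2 ± 2.87 CPM in wild-type mice (log2 fold change 0.71, SE 0.11, edgeR adjusted p = 0.000174) and from 18.5 ± 2.24 to 33.6 ± 3.84 CPM in knockin mice (0.87, SE 0.11, edgeR adjusted p = 1.48e-05). Slc2a4, the insulin-responsive glucose transporter, rose by 1.14 in wild-type and 1.33 in knockin mice (edgeR adjusted p = 7.83e-05 and 1.46e-05) from a low level of 1.10 and 0.85 CPM. Cdkn1a, the cell cycle inhibitor p21, is a reported target of Klf4 and was also listed among genes that the glucocorticoid receptor induces. It rose by 3.71 in wild-type and 3.35 in knockin mice (edgeR adjusted p = 6.48e-07 and 1.81e-06). S1pr1, a sphingosine phosphate receptor gene that Klf2 activates in lymphocytes, fell from 160.2 ± 8.25 to 92.6 ± 10.1 CPM in wild-type and from 171 ± 19.0 to 105 ± 12.9 CPM in knockin mice (log2 fold change -0.79 and -0.71, edgeR adjusted p = 4.60e-06 and 1.27e-05).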

How the data were processed

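Whole-hippocampus poly(A) RNA from 20 mice was sequenced as 75-base read pairs, per the labels' protocols. Each deposited table holds raw counts (read pairs assigned to a gene), which the authors made with featureCounts 2.0.6 and the GENCODE M34 basic annotation without a strand option, per the file headers. The submitters' processing notes name STAR 2.5.1, Subread 1.5.1, DESeq2 1.38.3 and mm39. Exon length per gene, deposited in the same tables, gave RPKM. Symbols came from a names table of an older annotation (51884 of 57126 identifiers matched).

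Counts were fitted with edgeR 4.0.16 (R 4.3.3): filterByExpr (minimum count 10, minimum total 15), TMM scaling and a robust quasi-likelihood model with 1 term per group over all 20 libraries, with 16 residual degrees of freedom. Log2 CPM for correlations used a prior count of 2. The scripts were tested on simulated data. Alternatives were DESeq2 1.42.0, limma-voom (limma 3.58.1), other scalings and filters, the compared libraries alone, a replicate block, marker covariates and leaving out libraries.

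The 10 factors, the gene lists and the rule for named genes (all 10, other Klf and Sp genes, up to 4 called genes per list and comparison, and the 3 genes most alike) were chosen with earlier results of these data known. The relations to Fkbp5, Nr3c1, clock genes and library measures, the liver list without Ttr and Trf, and the pairs without 2 libraries were added after the values were seen.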

Additional observations from a re-analysis of the deposited data

Results flagged for a closer look

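Klf10 in wild-type dexamethasone replicate 1 stood apart from its group. It read 21.2 CPM, the nearest of the other 4 libraries read 27.7 CPM and the highest read 29.3 CPM. The gap to the nearest library was 0.805 of the group's range, above the limit of 0.71 for 5 values. It was the only 1 of 40 sets of values (10 genes in 4 groups) past that limit, where chance alone passes about 1 set in 20. The same library held the highest Klf15, Klf9, Klf13 and Klf4 of its group.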

How the results depend on the processing

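Klf9 and Klf15 kept their calls and direction in both genotypes under all 32 alternatives, with log2 fold changes of 0.35 to 0.52 and 0.92 to 1.15 in wild-type and 0.41 to 0.54 and 1.02 to 1.17 in knockin mice. No called value changed direction under any alternative, while 78 of 1900 member values, all uncalled, changed sign. With immediate-early genes as a covariate, 840 genes were called in wild-type mice and 2102 in the mean response (in place of 1717 and 3393), and 3 members in the mean response (11.3% of all genes). With endothelial markers as a covariate 2090 were called in the mean response. Without wild-type PBS replicates 1 and 2, 7 members were called in wild-type mice (9.16% of all genes, beside 9.21% with all libraries). Fitting the compared libraries alone called 1 gene between the genotypes under dexamethasone. The cause of these changes was not tested. Leaving out each library in turn gave 8 to 16 correlated pairs (13 with all), 3 to 5 members called in each genotype and 5 to 7 in the mean response (6.86% to 9.46% of all genes in wild-type mice, 7.96% to 10.4% in knockin mice and 15.8% to 18.5% in the mean). Same-numbered libraries deviated together weakly (r from -0.11 to 0.25, 5 of 30 pairs over 0.1, and 7 of 20 libraries best with their own number), so the numbers were not taken as pairing; the replicate block called 5 members in wild-type mice (Klf2 added, log2 fold change 0.67, edgeR adjusted p = 0.0389), 4 in knockin mice and 7 in the mean response (Klf4 added, 0.26, edgeR adjusted p = 0.0475), against 8.81%, 9.88% and 18.1% of all genes. The mean response of Klf4 was called in 8 of 31 alternatives. Klf2 and Klf4, with as few as 65 and 44 counts in a library, carry the largest counting error.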
